A study of Mus musculus with 18 samples.

Results

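The mouse mitochondrial genome carries 37 genes, and the counts of all 37 were followed across 18 RNA sequencing libraries. The members were taken as every gene that the deposited files place on the sequence named MT, and they are 37 of the 39179 genes in the files: 13 mRNAs, 2 rRNAs and 22 tRNAs. The libraries come from MC38, a cell line derived from a colon adenocarcinoma of C57BL6 mice, and the study asked what inducible knockdown of the tryptophan-degrading enzyme TDO2 does in cells with and without the tumour suppressor APC. There are 6 groups of 3 libraries: APC-intact and APC-deleted cells, each untreated (0 h) and after 24 h and 48 h with 1 µM doxycycline, the drug that switches on the hairpin against TDO2.

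All groups share the MC38 background and a medium with serum approved for tetracycline-controlled systems. The labels name the hairpin in the sample titles of the treated groups only, while the protocol speaks of cells carrying it with and without the drug. No treated group lacks the hairpin, so doxycycline itself and TDO2 knockdown cannot be told apart. The labels call the 3 libraries of a group biological triplicates without saying whether they are separate cultures; a p-value then measures only how far these libraries scatter, and that scatter may be technical. The file names carry text read here as 2 sequencing runs: both untreated groups and the APC-intact 24 h group belong to run 1, and the other 3 groups to run 2. Where a comparison crosses runs, run and treatment cannot be told apart, and this holds for 48 h against untreated in both lines and for 24 h against untreated in APC-deleted cells.

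Mitochondrial DNA is a small circle that encodes subunits of the respiratory chain, the ribosomal RNAs of the mitochondrion's own ribosomes and the tRNAs that those ribosomes use. Each of its strands is transcribed as a long RNA covering many genes, and the tRNAs that stand between the mRNAs mark where it is cut, so levels of single mRNAs are also set by how stable each one is. Doxycycline is known to bind mitochondrial ribosomes and inhibit translation there.

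The 3 tRNA genes with more than a handful of counts are shown because the falls of mt-Tn and mt-Tc were called under every alternative that was run. The letters are those of the gene strand in GENCODE release M21 (build GRCm38, which is mm10), 5′ to 3′, with the anticodon in capitals, found as the middle of a 7-base loop closed by 5 base pairs. mt-Tn carries asparagine (MT, 5089 to 5159, minus strand), mt-Tc cysteine (MT, 5192 to 5257, minus strand) and mt-Tp proline (MT, 15356 to 15422, minus strand).
mt-Tn: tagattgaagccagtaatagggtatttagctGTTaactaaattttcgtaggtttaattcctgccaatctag
mt-Tc: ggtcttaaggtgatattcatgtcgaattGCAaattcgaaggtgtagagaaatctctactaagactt
mt-Tp: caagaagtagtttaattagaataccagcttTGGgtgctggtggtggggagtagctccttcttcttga

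A second set is shown because 5 of the 6 mRNAs with few counts have the same letters in a nuclear gene over nearly their whole length. The first 120 bases of mt-Co2 (a subunit of complex IV) are printed in lower case throughout, because the pseudogene Gm28661 on chromosome 1 has the same letters there. In mt-Co1, bases 1063 to 1182 are set beside the pseudogene Gm29216, with the differing base in capitals (A1066T, counted from the first base of mt-Co1).
mt-Co2 and Gm28661: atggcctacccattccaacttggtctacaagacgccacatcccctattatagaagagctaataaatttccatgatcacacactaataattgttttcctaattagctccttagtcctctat
mt-Co1: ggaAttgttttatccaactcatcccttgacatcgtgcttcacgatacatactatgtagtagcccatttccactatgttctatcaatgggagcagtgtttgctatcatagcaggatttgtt
Gm29216: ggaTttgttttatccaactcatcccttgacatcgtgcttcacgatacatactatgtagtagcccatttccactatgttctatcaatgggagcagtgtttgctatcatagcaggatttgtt

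Each library held between 71970499 and 111948430 counts on genes, and 16.04% to 17.48% of all counted reads were listed as not uniquely placed. In the fit across all genes, 15006 genes passed the filter on low counts, 18 of them mitochondrial. The APC-intact 24 h library 1 and the APC-deleted 48 h library 2 stood apart from the rest on principal components 3 and 4 of all genes, and counts of calls without them are given with each comparison. Of the epithelial markers, Cdx2 was at 0 in all 18 libraries and Epcam had 2 counts in total, while Krt8 and Cdh1 had medians of 2.15 and 1.16 CPM (counts scaled to a library of fixed size, by TMM normalisation for all CPM values except those of these markers and of the 3-count floor, which are per total gene counts). The other epithelial markers, Krt18, Krt19, Krt20 and Vil1, had 30, 109, 98 and 114 counts in total. Of the mesenchymal markers, Vim and Col1a1 had medians of 2015 and 854 CPM, and Cdh2 had 12 counts in total and was at 0 in 13 libraries. The blood-cell marker Ptprc had 19 counts in total, and the endothelial markers Cdh5 and Pecam1 had medians of 3.56 and 0.689 CPM. Tdo2, the targeted gene, averaged between 0.107 and 0.254 CPM in the 6 groups, where 3 counts correspond to 0.0268 to 0.0417 CPM, so a knockdown could not be judged at this level. Apc averaged 75.2 CPM ± 3.77 (SD, n = 3) in untreated APC-deleted and 112 CPM ± 14.1 (SD, n = 3) in untreated APC-intact cells.

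Of the 37 members, 27 had at least 1 count. All 13 mRNAs and both rRNAs were counted in every library. The mRNAs took 94.0% of the mitochondrial counts, the rRNAs 5.59% and the tRNAs 0.418%. Of the 22 tRNAs, 12 had a count. mt-Tn, mt-Tc and mt-Tp were counted in all 18 libraries, with 2530, 5782 and 13097 counts in total. Another 9 tRNAs, mt-Tf, mt-Tv, mt-Tl1, mt-Tq, mt-Tm, mt-Ta, mt-Ty, mt-Th and mt-Te, were counted but stayed under 20 counts in every library. The remaining 10, mt-Ti, mt-Tw, mt-Ts1, mt-Td, mt-Tk, mt-Tg, mt-Tr, mt-Ts2, mt-Tl2 and mt-Tt, had no count in any library. By counting error alone, the upper 95% bound is then 3 counts per library, or 0.0268 to 0.0417 CPM. Reads that entered no gene's count are not covered by this bound. The 3 well counted tRNA genes are all on the minus strand of the files, as are 8 of the 22 tRNA genes, while none of the 14 plus-strand tRNA genes reached 20 counts in a library. The only mRNA on the minus strand is mt-Nd6. Whether counting used strand is not given in the sources used here, so reads from these genes and from RNA of the opposite strand cannot be told apart.

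The 13 mRNAs fell into 2 sets by their counts. mt-Nd1, mt-Nd2, mt-Co1, mt-Nd4, mt-Nd5, mt-Nd6 and mt-Cytb had 2417 to 147120 counts in each library. mt-Co2, mt-Atp8, mt-Atp6, mt-Co3, mt-Nd3 and mt-Nd4l had 1 to 133 counts in each library and together 0.104% of all mitochondrial mRNA counts. These 6 neighbour each other on the genome, from MT 7013 to 10173.

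Of the 6 low mRNAs, 5 consist almost wholly of sequence that is also found elsewhere. Among runs of 75 consecutive bases, 99.5% of those in mt-Co2 and in mt-Atp6, 99.9% in mt-Co3, 97.8% in mt-Nd3 and 98.7% in mt-Nd4l also stand in an annotated transcript of a nuclear gene. The share was 61.5% in mt-Nd4, 39.8% in mt-Co1, 5.71% in mt-Nd2 and 1.66% in mt-Nd5, and no such run was found in mt-Nd1, mt-Nd6, mt-Cytb, mt-Rnr1 or mt-Rnr2. Between these extremes, mt-Co1 and mt-Nd4 share much of their sequence and were well counted. They keep 885 and 502 runs of 75 bases that are not shared, against 1 to 6 in each of the 5 low mRNAs above. The part of shared sequence in these levels was not tested. The sixth low mRNA is mt-Atp8, which had 8 to 34 counts per library and no shared run. It lies between mt-Co2 and mt-Atp6, and its last 43 bases are also the start of mt-Atp6, which has a nuclear copy. That overlap is shorter than the runs searched. The rest of the matching stretch of chromosome 1 holds no annotated transcript, so its sequence was not examined.

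The nuclear copies form a block on the minus strand of chromosome 1, chr1:24611535-24616197 (GRCm38), annotated as 7 unprocessed pseudogenes. They are Gm28439 (bases 1 to 876 of mt-Nd4), Gm10222 (mt-Nd4l), Gm28438 (mt-Nd3), Gm28437 (mt-Co3), Gm10925 (mt-Atp6), Gm28661 (mt-Co2) and Gm29216 (bases 1063 to 1545 of mt-Co1). Over the aligned bases, Gm29216 differs from mt-Co1 by 1 base and the other 6 have no mismatch. Of the 7, Gm10222 is listed in the deposited files, with 260 counts over all 18 libraries. Further copies on chromosome 2, Gm13340, Gm13341 and Gm13339, had 219, 193 and 81 counts. Reads not uniquely placed, 16.04% to 17.48% of all counted reads, were listed in an entry that names no gene. How many of them came from these copies, and whether any also entered a gene's count, was not tested. The levels of the 6 low mRNAs are therefore uncertain, and so are those of mt-Nd4 and mt-Co1, which are shared in part.

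**Figure D1:**
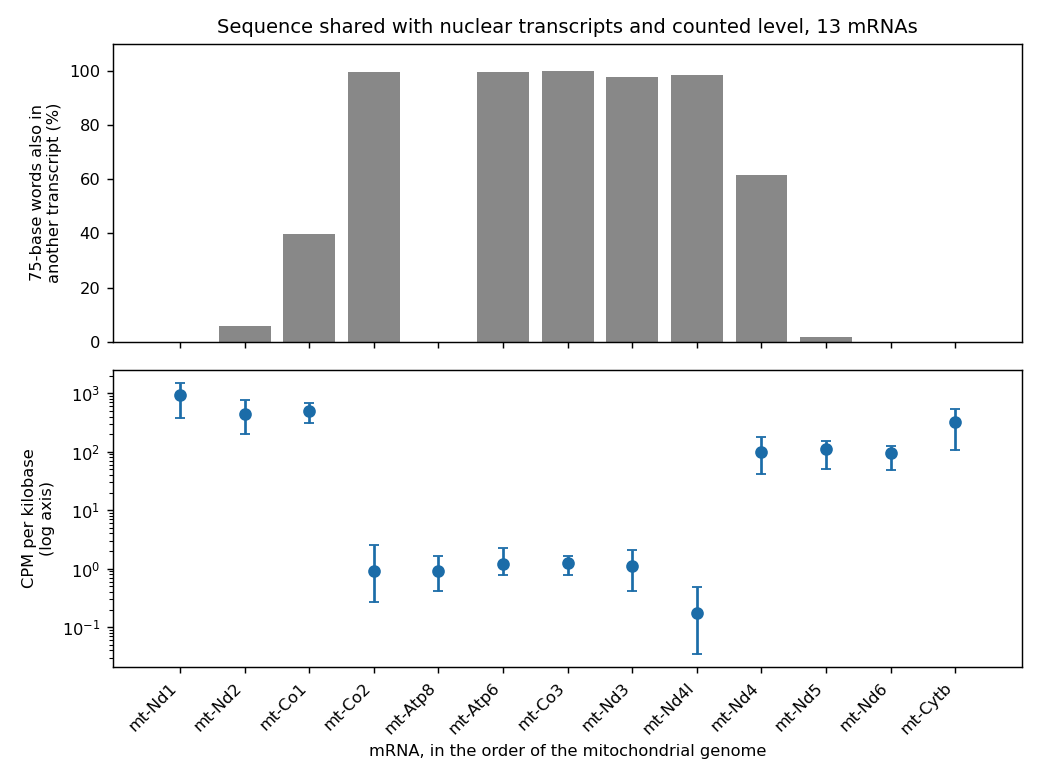
Upper panel: percent of 75-base runs of each mRNA that also stand in an annotated nuclear transcript. Lower panel: level in CPM per kilobase on a log axis, as the mean of 18 libraries with bars from the lowest to the highest library. The 5 mRNAs at 97.8% shared or more, and mt-Atp8, lie at 1.24 CPM per kilobase or less, and the other 7 at 96.2 or more.

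Levels of different genes were compared per kilobase of gene, with shared stretches kept in the length. In CPM per kilobase, averaged over the 18 libraries, mt-Nd1 was at 949, mt-Co1 at 501, mt-Nd2 at 440 and mt-Cytb at 329. Below them stood mt-Tp at 117, mt-Nd5 at 110, mt-Nd4 at 99.2, mt-Nd6 at 96.2, mt-Rnr1 at 71.1, mt-Rnr2 at 66.6, mt-Tc at 52.4 and mt-Tn at 21.3. The rRNAs, which form the ribosome, were thus counted below 7 of the mRNAs. The low set ran from mt-Co3 at 1.24, mt-Atp6 at 1.22, mt-Nd3 at 1.09, mt-Atp8 at 0.929 and mt-Co2 at 0.895 down to mt-Nd4l at 0.175. In CPM per 1000 unshared runs of 75 bases, mt-Nd1 was at 1029, mt-Co1 at 875, mt-Nd4 at 272, mt-Nd5 at 116 and mt-Nd6 at 112. By that measure mt-Nd4 stood above mt-Nd5, and per kilobase below it.

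The mitochondrial genes took between 0.144% and 0.469% of a library's gene counts. In APC-intact cells the share was 0.249%, 0.296% and 0.302% untreated, 0.304%, 0.294% and 0.281% at 24 h, and 0.336%, 0.294% and 0.320% at 48 h. In APC-deleted cells it was 0.205%, 0.144% and 0.274% untreated, 0.440%, 0.429% and 0.246% at 24 h, and 0.379%, 0.469% and 0.305% at 48 h. The group means were 0.282% ± 0.029, 0.293% ± 0.012 and 0.317% ± 0.021 in APC-intact cells and 0.207% ± 0.065, 0.372% ± 0.109 and 0.384% ± 0.082 in APC-deleted cells (SD, n = 3 each). The 3 APC-deleted libraries at 48 h lay above all 3 untreated ones, while those at 24 h overlapped them, and the 3 groups of APC-intact cells overlapped. Counting error is small beside this spread, since the 95% Wilson interval of a share was at most 0.00306 percentage points wide. The share sums over the members and was given no test. In bulk samples, fewer cells of a type and less RNA per cell cannot be told apart.

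**Figure D2:**
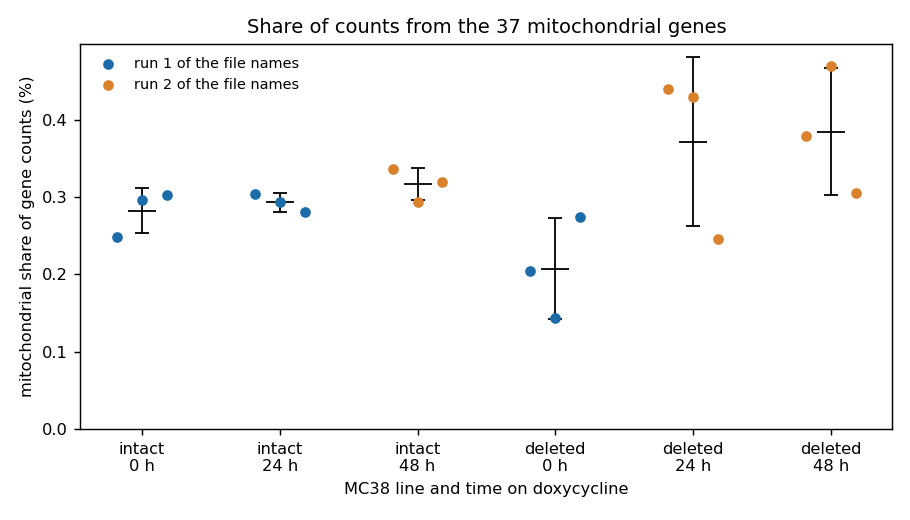
Each point is 1 library, with its mitochondrial share of gene counts in percent on the vertical axis, by line and time on doxycycline. The horizontal line is the group mean, the bars are 1 SD, and the colour gives the run named in the files; the APC-deleted treated libraries range from 0.246% to 0.469% and the untreated ones from 0.144% to 0.274%.

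The libraries of a group differed more in the well counted mRNAs and the rRNAs than in most genes of like level. The biological coefficient of variation, edgeR's estimate of the spread between replicates, was 16.6% to 26.1% for the 7 well counted mRNAs, against medians of 5.599% to 5.84% for genes of similar level. It was 17.1% and 11.4% for mt-Rnr1 and mt-Rnr2, against medians of 5.68% and 5.65%. The low mRNAs differed in this. mt-Co2 at 28.3% and mt-Atp6 at 22.7% lay above their medians of 19.9% and 18.3%. mt-Co3 at 18.2%, mt-Nd3 at 23.4% and mt-Atp8 at 30.4% lay near their medians of 17.5%, 23.1% and 28.5%. mt-Nd4l, at 27.0%, lay below its median of 38.1%. The tRNAs mt-Tn and mt-Tc, at 13.1% and 12.2%, lay near the medians of 15.5% and 10.9% for genes at their lower levels. mt-Tp, at 12.1%, lay above its median of 8.06%. In 5 of the 6 groups the same library was lowest for all 7 mRNAs: library 1 of untreated APC-intact, 2 of untreated APC-deleted, 3 of APC-deleted at both 24 h and 48 h, and 2 of APC-intact at 48 h. The 7 mRNAs thus moved up and down together between libraries of a group, so calls on them are not independent of each other.

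Complex I takes electrons from NADH, and 7 of its subunits are encoded here. mt-Nd1 was counted at 928, 1022 and 966 CPM in untreated APC-intact cells, 814, 855 and 750.0 at 24 h, and 898, 755 and 866 at 48 h. In APC-deleted cells it was at 651, 366 and 785 CPM untreated, 1423, 1319 and 659 at 24 h, and 1115, 1428 and 753 at 48 h. The treated APC-intact libraries all lay below the untreated ones, and in APC-deleted cells the groups overlapped, with the third library low at 24 h and at 48 h. For mt-Nd2 the values were 382, 459 and 449.9 CPM in untreated APC-intact cells, 384, 363 and 391 at 24 h, and 431, 381 and 445 at 48 h. In APC-deleted cells they were 313, 206 and 354 CPM untreated, 722, 714 and 377 at 24 h, and 621, 789 and 443 at 48 h. Here every treated APC-deleted library was above every untreated one, with the 24 h library 3 and untreated library 3 close together.

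mt-Nd4 stood at 81.0, 105 and 116 CPM in untreated APC-intact cells, 149, 129 and 128 at 24 h, and 152, 136 and 139.8 at 48 h. In APC-deleted cells it stood at 70.3, 57.9 and 105 CPM untreated, 193, 194 and 115 at 24 h, and 184, 247 and 159 at 48 h. For this gene the treated libraries were above the untreated ones in both lines at both times. mt-Nd5, the longest of the subunits, gave 129, 154 and 179 CPM in untreated APC-intact cells, 199.97, 193 and 202 at 24 h, and 227, 212 and 232 at 48 h. APC-deleted cells gave 126, 91.3 and 157 CPM untreated, 279, 282 and 173 at 24 h, and 264, 276 and 222 at 48 h. The treated and untreated libraries of mt-Nd5 did not overlap in either line. mt-Nd6, the subunit encoded on the other strand, measured 34.9, 39.8 and 47.3 CPM in untreated APC-intact cells, 49.6, 60.9 and 48.8 at 24 h, and 58.7, 54.9 and 55.1 at 48 h. In APC-deleted cells mt-Nd6 measured 32.9, 25.1 and 43.4 CPM untreated, 66.0, 65.0 and 42.8 at 24 h, and 62.8, 59.7 and 50.7 at 48 h. At 24 h its lowest APC-deleted library, at 42.8 CPM, reached into the untreated range.

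The other mRNAs belong to complexes III, IV and V. mt-Cytb, cytochrome b of complex III, was counted at 222, 265 and 296 CPM in untreated APC-intact cells, 392, 392 and 399.8 at 24 h, and 470.0, 401 and 437 at 48 h. In APC-deleted cells mt-Cytb was at 165, 123 and 219 CPM untreated, 529.6, 579.9 and 356 at 24 h, and 482, 614 and 441 at 48 h. Its treated libraries lay above all untreated ones in both lines. mt-Co1, the catalytic subunit of complex IV, read 562, 707 and 745 CPM in untreated APC-intact cells, 760.3, 673 and 667 at 24 h, and 869, 741 and 787 at 48 h. APC-deleted cells read 552, 473 and 933 CPM untreated, 983, 952 and 620.1 at 24 h, and 977, 1055 and 878 at 48 h. The mt-Co1 ranges of treated and untreated libraries overlapped in both lines at 24 h and at 48 h.

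The 6 low mRNAs are given as raw counts per library, in the order of replicates 1 to 3. mt-Co2 had 52, 30 and 45 counts in untreated APC-intact cells, 49, 50 and 44 at 24 h, and 72, 66 and 64 at 48 h. APC-deleted cells had 28, 18 and 38 counts untreated, 64, 78 and 46 at 24 h, and 58, 133 and 62 at 48 h. The APC-deleted 48 h library 2 was the highest of all, and it is one of the libraries that stand apart. For mt-Co3, also of complex IV, there were 84, 113 and 91 counts in untreated APC-intact cells, 62, 72 and 64 at 24 h, and 92, 76 and 108 at 48 h. For APC-deleted cells there were 103, 96 and 90 counts untreated, 127, 108 and 59 at 24 h, and 97, 80 and 94 at 48 h. All 6 groups of mt-Co3 lay within a range of 59 to 127 counts.

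mt-Atp6 and mt-Atp8 are subunits of the ATP synthase and overlap on the genome. mt-Atp6 had 58, 69 and 103 counts in untreated APC-intact cells, 52, 49 and 78 at 24 h, and 70, 76 and 67 at 48 h. With APC deleted it had 69, 52 and 72 counts untreated, 126, 98 and 66 at 24 h, and 86, 118 and 65 at 48 h. mt-Atp8, the shorter one, stayed between 8 and 34 counts. Its libraries had 10, 12 and 24 counts in untreated APC-intact cells, 12, 14 and 17 at 24 h, and 19, 11 and 17 at 48 h. The APC-deleted libraries had 8, 15 and 20 counts untreated, 34, 24 and 9 at 24 h, and 21, 26 and 21 at 48 h. The complex I subunit mt-Nd3 ranged from 13 to 68 counts, and mt-Nd4l from 1 to 12. mt-Nd3 had 32, 24 and 14 counts in untreated APC-intact cells, 39, 21 and 50 at 24 h, and 43, 41 and 68 at 48 h. In APC-deleted cells mt-Nd3 had 17, 18 and 13 counts untreated, 44, 56 and 31 at 24 h, and 48, 34 and 38 at 48 h. Every treated APC-deleted library had more counts of mt-Nd3 than any untreated one. mt-Nd4l had 2, 2 and 1 counts in untreated APC-intact cells, 2, 3 and 7 at 24 h, and 6, 3 and 2 at 48 h. In APC-deleted cells mt-Nd4l had 3, 2 and 4 counts untreated, 5, 12 and 5 at 24 h, and 10, 11 and 6 at 48 h. Gm10222, the nuclear copy of mt-Nd4l, averaged 0.0795 CPM ± 0.0474 in untreated and 0.275 CPM ± 0.0912 in 48 h APC-deleted cells (SD, n = 3).

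The rRNAs of the small and large mitochondrial ribosomal subunits are mt-Rnr1 and mt-Rnr2. mt-Rnr1 was at 63.9, 70.5 and 71.0 CPM in untreated APC-intact cells, 82.4, 86.9 and 71.9 at 24 h, and 78.9, 69.8 and 82.6 at 48 h. In APC-deleted cells mt-Rnr1 was at 46.7, 37.9 and 57.5 CPM untreated, 89.7, 73.9 and 48.1 at 24 h, and 63.6, 74.8 and 52.1 at 48 h. Untreated APC-deleted libraries were all below untreated APC-intact ones. For mt-Rnr2 the libraries held 90.8, 105 and 109 CPM in untreated APC-intact cells, 119, 126 and 119 at 24 h, and 132, 121 and 140.4 at 48 h. In APC-deleted cells they held 72.2, 64.9 and 88.6 CPM untreated, 120.01, 111 and 77.7 at 24 h, and 102, 102 and 95.7 at 48 h. At 0 h and at 48 h, the APC-deleted libraries of mt-Rnr2 lay below all APC-intact ones.

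Of the tRNAs, mt-Tc was counted at 5.06, 5.67 and 5.04 CPM in untreated APC-intact cells, 3.08, 3.00 and 2.92 at 24 h, and 2.47, 3.78 and 3.40 at 48 h. In APC-deleted cells mt-Tc was at 4.65, 5.07 and 4.98 CPM untreated, 2.45, 2.75 and 2.25 at 24 h, and 2.20, 1.45 and 2.00 at 48 h. Each treated library was below each untreated one of its line. mt-Tn, its neighbour on the same strand, was at 2.25, 2.53 and 2.44 CPM in untreated APC-intact cells, 1.22, 1.11 and 1.18 at 24 h, and 1.13, 1.49 and 1.61 at 48 h. In APC-deleted cells mt-Tn was at 1.79, 2.47 and 2.26 CPM untreated, 1.09, 1.24 and 1.02 at 24 h, and 0.882, 0.700 and 0.751 at 48 h. Again no treated library reached the untreated range. mt-Tp, at the other end of the genome, was at 6.49, 6.75 and 7.08 CPM in untreated APC-intact cells, 8.20, 7.63 and 7.53 at 24 h, and 5.67, 7.17 and 6.68 at 48 h. In APC-deleted cells mt-Tp was at 7.71, 6.28 and 7.33 CPM untreated, 12.1, 11.2 and 7.72 at 24 h, and 10.1, 7.66 and 7.67 at 48 h. mt-Tp did not share the fall of the other 2. Its treated APC-deleted libraries at 24 h were all above the untreated ones, but the nearest lay at 7.72 and 7.71 CPM. At 48 h its treated and untreated libraries overlapped in both lines.

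**Figure D3:**
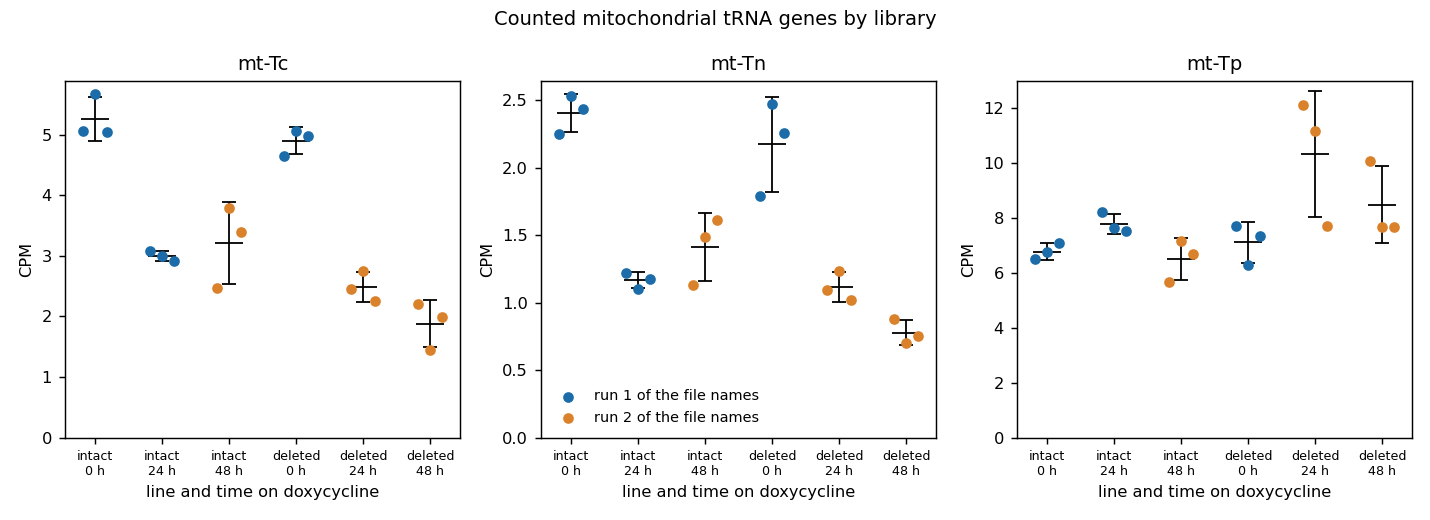
Level of the 3 well counted tRNA genes in CPM, 1 point per library, by line and time on doxycycline, with the group mean, bars of 1 SD and the run as colour. mt-Tc and mt-Tn are lower in every treated library than in every untreated library of the same line, and mt-Tp is not.

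Without doxycycline, 2 of the 18 tested members were lower in APC-deleted than in APC-intact cells and none was higher, where 13.8% of all tested genes were lower and 13.4% higher (27.3% in either direction). mt-Rnr2 was lower with a log2 fold change of -0.43 ± 0.133 (SE, edgeR adjusted p = 0.0235) and mt-Cytb with -0.63 ± 0.210 (edgeR adjusted p = 0.0398). The 2 called of 18 are a smaller share than among all tested genes. The libraries did not overlap for 5 members, all lower, where 24.8% of all tested genes separate this way. The median log2 fold change of the 18 was -0.29, and it was -0.0044 over all tested genes. Neither call was kept without any 1 of APC-intact library 2 or 3 or APC-deleted library 1 or 2, nor without the 2 libraries that stand apart, where 0 members were called.

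In APC-intact cells, the comparison of 24 h with 0 h lies within 1 run. There, 2 of 18 members fell, against 4.25% of all tested genes, and 0 rose, against 1.39% (5.64% in either direction). mt-Tn fell by 1.04 on the log2 scale (SE 0.165, edgeR adjusted p = 0.000574), which is a ratio of 0.485 (95% interval 0.382 to 0.616). mt-Tc fell by 0.81 (SE 0.146, edgeR adjusted p = 0.00188). Among the mRNAs, 0 of 13 passed the test: mt-Cytb had a log2 fold change of 0.59 ± 0.210 (edgeR adjusted p = 0.127) and mt-Nd1 one of -0.27 ± 0.310 (edgeR adjusted p = 0.691). At an unadjusted edgeR p under 0.05, 4 of 18 members differed, near the share among all tested genes (2917 of 15006). DESeq2 also called 2 members. The CPM of the groups did not overlap for 8 members that were higher and 4 that were lower, where 8.56% and 14% of all tested genes separate in this way. Without the 2 libraries that stand apart, the same number of 2 was called.

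After 48 h, APC-intact cells were compared across runs: 2 members were higher and 2 lower than at 0 h, against 3.81% and 7.54% of all tested genes (11.3% in either direction). mt-Tn fell by 0.77 (SE 0.162, edgeR adjusted p = 0.00412) and mt-Tc by 0.71 (SE 0.145, edgeR adjusted p = 0.00336). mt-Cytb rose by 0.74 on the log2 scale (SE 0.210, edgeR adjusted p = 0.0393) and mt-Nd3 by 1.12 (SE 0.333, edgeR adjusted p = 0.0351). Both rises were lost, leaving 2 called, without any 1 of untreated library 2 or 3 or 48 h library 1 or 3, and mt-Cytb was lost without each of the 6 libraries in turn. The libraries did not overlap for 7 members that were higher and 3 that were lower, against 20.4% and 22.7% of all tested genes. Without the libraries that stand apart, 4 members were called.

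APC-deleted cells at 24 h, again across runs, had 7 members higher and 2 lower than at 0 h, where 2.08% of all tested genes were higher and 3.77% lower (5.85% in either direction). mt-Cytb rose by 1.53 on the log2 scale (SE 0.214, edgeR adjusted p = 0.000916), a ratio of 2.90 (95% interval 2.10 to 3.99). The complex I subunits mt-Nd2, mt-Nd3, mt-Nd4, mt-Nd5 and mt-Nd6 rose by 1.06, 1.29, 1.11, 0.97 and 0.78, and mt-Tp by 0.54. mt-Tn fell by 0.96 (SE 0.164, edgeR adjusted p = 0.00131) and mt-Tc by 0.98 (SE 0.147, edgeR adjusted p = 0.000396). mt-Nd1, at 0.92 ± 0.312, and mt-Co1, at 0.38 ± 0.227, did not pass (edgeR adjusted p = 0.115 and 0.385). The libraries did not overlap for 8 higher and 2 lower members, against 16.1% and 17.5% of all tested genes. The count of 9 dropped to 4 without untreated library 1 or 2 and to 3 without 24 h library 1 or 2. mt-Cytb, mt-Tn and mt-Tc were called each time. The calls on mt-Nd3 and mt-Tp were each lost in 5 of the 6 cases of leaving out 1 library. Without the libraries that stand apart 9 were called, but not the same 9, since mt-Nd6 was lost.

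After 48 h in APC-deleted cells, 7 members were higher and 2 lower than at 0 h, against 4.52% and 6.49% of all tested genes (11% in either direction). mt-Cytb rose by 1.60 (SE 0.214, edgeR adjusted p = 0.000420), a ratio of 3.04 (95% interval 2.20 to 4.19). mt-Nd2, mt-Nd3, mt-Nd4, mt-Nd5 and mt-Nd6 rose by 1.09, 1.43, 1.34, 1.03 and 0.77. mt-Co2 rose by 1.74 (SE 0.363, edgeR adjusted p = 0.00401), and by 1.13 without 48 h library 2 (edgeR adjusted p = 0.0179). mt-Tn fell by 1.48 (SE 0.170, edgeR adjusted p = 1.41e-05) and mt-Tc by 1.38 (SE 0.151, edgeR adjusted p = 7.84e-06). Treated and untreated libraries were apart for 10 higher and 2 lower members, against 10.6% and 15% of all tested genes. Without the libraries that stand apart, 7 members were called, with mt-Nd2 and mt-Nd6 lost. The 24 h and 48 h comparisons of a line share their untreated libraries, so their values are not independent.

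**Figure D4:**
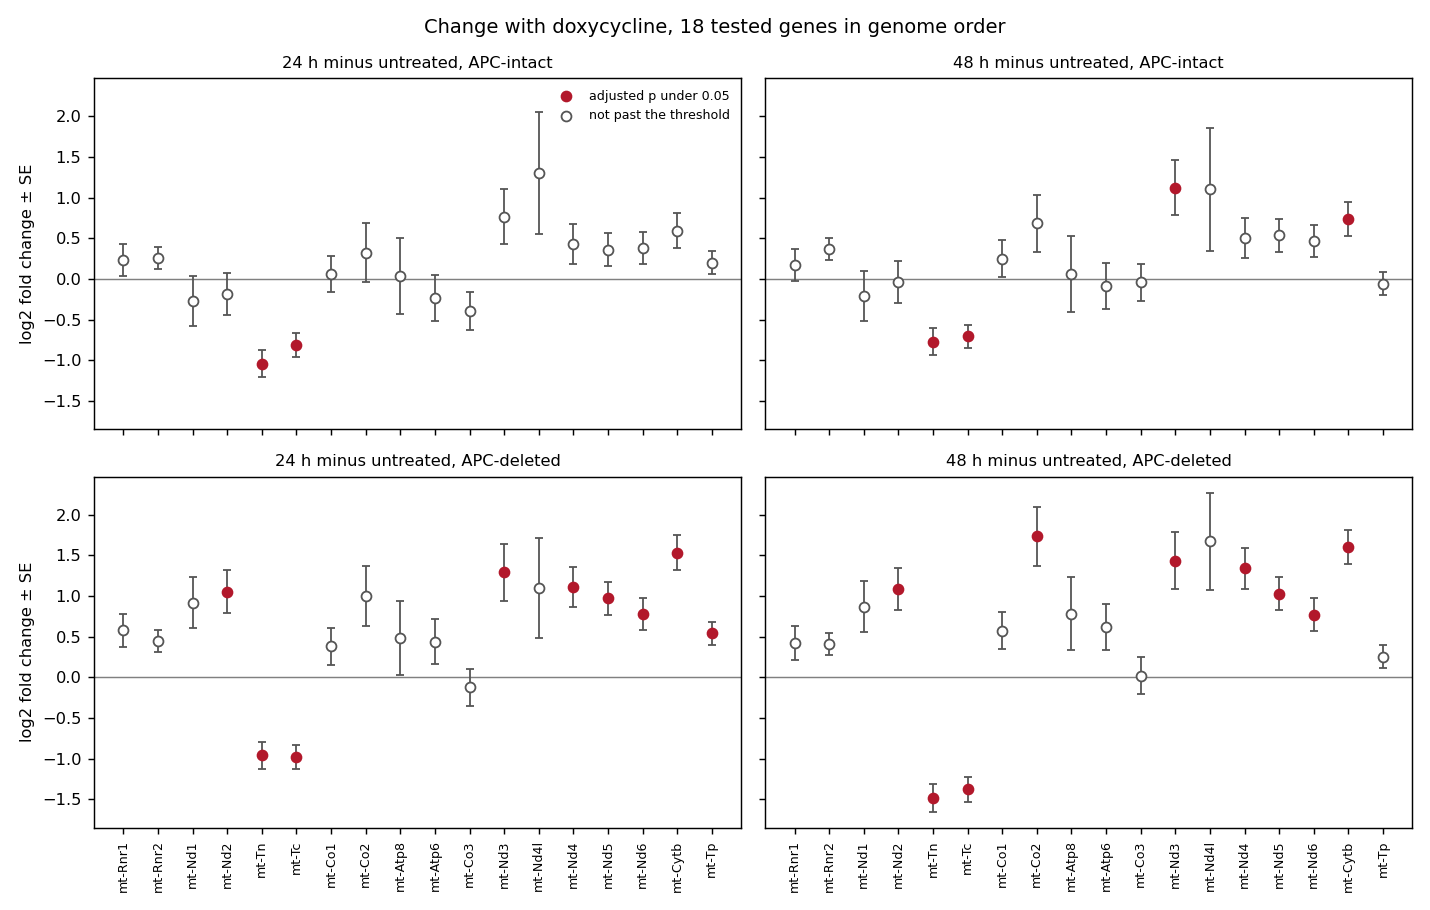
Log2 fold change with bars of 1 SE for the 18 tested members, in genome order, for 24 h and 48 h of doxycycline against untreated cells of each line; filled points have an edgeR adjusted p under 0.05. mt-Tn and mt-Tc are filled and below 0 in all 4 panels, and mt-Cytb is filled in all but the APC-intact 24 h panel.

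Both 48 h groups belong to run 2. Between them, 1 member was higher and 3 were lower in APC-deleted cells, where 17.8% and 16.8% of all tested genes were (34.7% in either direction). mt-Tn was lower by a log2 fold change of -0.86 ± 0.171 (edgeR adjusted p = 0.000587), mt-Tc by -0.77 ± 0.152 (edgeR adjusted p = 0.000518) and mt-Rnr2 by -0.39 ± 0.133 (edgeR adjusted p = 0.0329). mt-Tp was higher by 0.38 ± 0.141 (edgeR adjusted p = 0.0434). The calls on mt-Rnr2 and mt-Tp were both lost, leaving 2, without APC-deleted library 1, without APC-intact library 3, and without the libraries that stand apart. Both were also lost without APC-intact library 1 and with no filter on low counts. Of the 6 cases of leaving out 1 library, mt-Rnr2 was lost in 5 and mt-Tp in 3. The libraries were apart for 4 higher and 3 lower members, against 22.4% and 22.2% of all tested genes. No mRNA was called, and mt-Cytb differed by 0.23 ± 0.209 (edgeR adjusted p = 0.427).

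Within APC-deleted cells, 48 h against 24 h also lies within run 2, and 0 of 18 members were called by edgeR and by DESeq2, against 0.52% of all tested genes (0.0733% higher and 0.446% lower). At an unadjusted p under 0.05, 3 members differed by edgeR, against 1353 of the 15006 tested genes, and 4 by DESeq2. mt-Tn, at -0.52 ± 0.172 (edgeR adjusted p = 0.293), and mt-Tc, at -0.40 ± 0.152 (edgeR adjusted p = 0.421), were lower in all 3 libraries at 48 h than in any at 24 h, and were the 2 members that separated so, against 7.22% of all tested genes. The difference between the lines in the 48 h response, in which the run cancels, was called for 0 of 18 members by both tools. Among all tested genes, edgeR called 0.0267% (0.02% higher and 0.00666% lower). An unadjusted p under 0.05 was found for 6 members by edgeR, against 1051 of the 15006 tested genes, and for 7 by DESeq2. The difference was 0.86 ± 0.296 for mt-Cytb (edgeR adjusted p = 0.546), 1.12 ± 0.367 for mt-Nd2 (edgeR adjusted p = 0.530) and -0.67 ± 0.208 for mt-Tc (edgeR adjusted p = 0.468). A response of different size in the 2 lines was thus not shown, and the unadjusted 95% interval of the ratio for mt-Cytb ran from 1.17 to 2.84.

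A share within the mitochondrial mRNAs removes the up and down movement that these genes have in equal proportion, but not movement of unequal size. It was computed for the 7 well counted mRNAs, as a percent of their summed counts, after their values had been seen. mt-Cytb made up 9.505%, 9.64% and 10.6% of these counts in untreated APC-intact cells, 14.3%, 14.7% and 15.5% at 24 h, and 15.1%, 14.96% and 14.7% at 48 h. In APC-deleted cells it made up 8.63%, 9.14% and 8.43% at 0 h, 12.6%, 14.1% and 15.2% at 24 h, and 13.01%, 13.7% and 14.97% at 48 h. The lowest treated library, at 12.6%, was above the highest untreated one, at 10.6% over both lines. All untreated libraries are in run 1, so the APC-intact 24 h group is the treated group that can be set against them within a run. The difference at 24 h in APC-intact cells, within run 1, was 4.90 percentage points (two-sided exact permutation p = 0.1, the smallest that 3 against 3 libraries allow).

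The shares of the other mRNAs moved less evenly. mt-Nd4 went from 3.801% ± 0.338 to 5.07% ± 0.304 and 4.90% ± 0.176 in APC-intact cells, and from 4.01% ± 0.315 to 4.75% ± 0.160 and 5.29% ± 0.296 in APC-deleted cells (SD, n = 3), without overlap of treated and untreated libraries. In APC-intact cells mt-Nd1 was 37.1% ± 2.59 untreated, 30.2% ± 1.63 at 24 h and 28.8% ± 0.548 at 48 h, without overlap, but 30.5% ± 3.43, 31.4% ± 2.97 and 29.2% ± 3.30 in APC-deleted cells, with overlap. mt-Co1 made up 33.4% ± 3.89 in untreated APC-deleted cells and 25.4% ± 1.31 in untreated APC-intact cells, without overlap, against 26.6% ± 3.10 and 27.4% ± 0.738 at 48 h, with overlap. Since shares sum to a whole, a rise of 1 lowers the others.

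**Figure D5:**
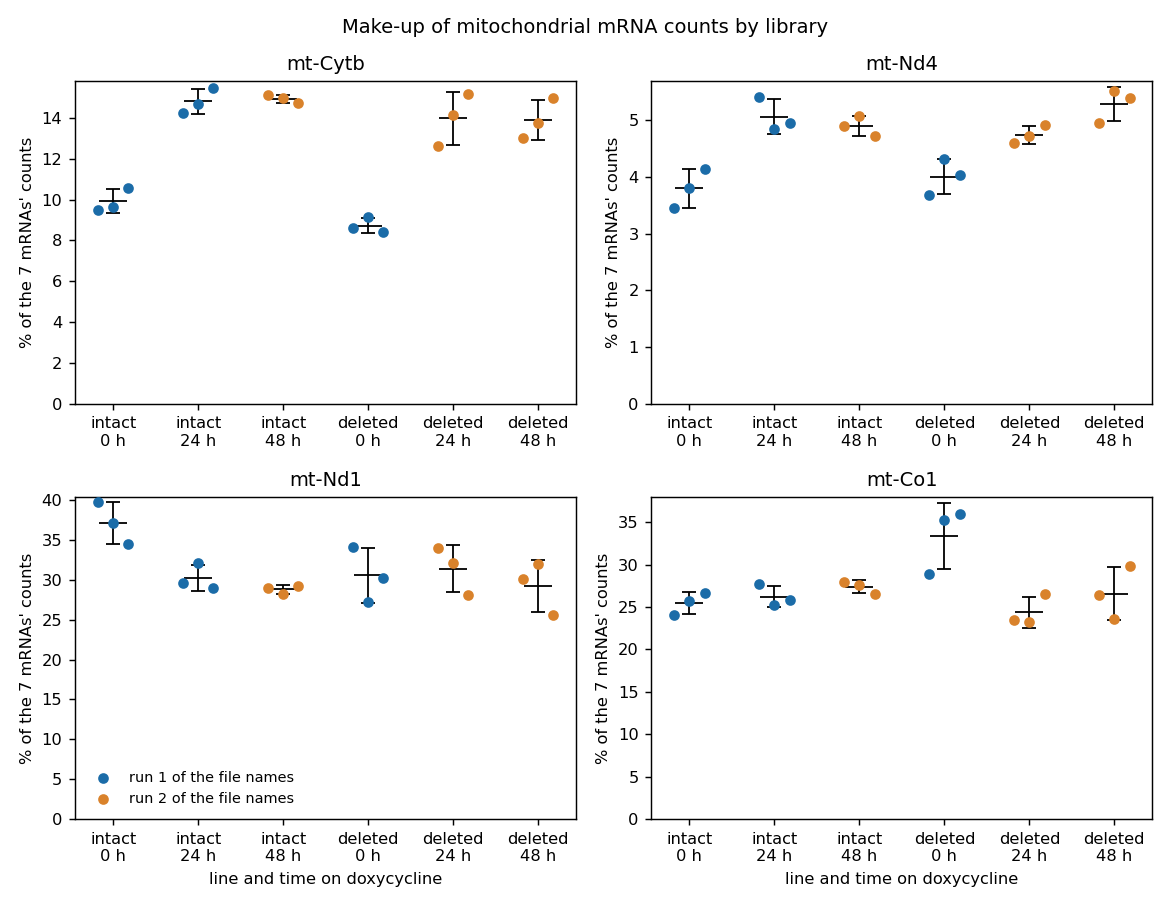
Percent of the summed counts of the 7 well counted mRNAs taken by mt-Cytb, mt-Nd4, mt-Nd1 and mt-Co1, 1 point per library, by line and time on doxycycline, with the group mean, bars of 1 SD and the run as colour. mt-Cytb is at 8.43% to 10.6% in untreated and 12.6% to 15.5% in treated libraries, while mt-Nd1 separates in APC-intact cells alone.

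The ratio of mt-Cytb to mt-Nd1 counts, the mRNAs nearest to the end and to the start of the coding part of the plus strand, was in APC-intact cells 0.269 ± 0.0346 untreated, 0.491 ± 0.0382 at 24 h and 0.519 ± 0.0138 at 48 h (SD, n = 3). In APC-deleted cells it was 0.289 ± 0.0421, 0.451 ± 0.0846 and 0.483 ± 0.0896. The ratio of mt-Tn to mt-Tc counts was between 0.390 and 0.458 in the group means.

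Other measures are given beside these values without a test. Malat1, an RNA that stays in the nucleus, in APC-intact cells averaged 113 CPM ± 44.6 untreated, 219.7 CPM ± 109 at 24 h and 382 CPM ± 85.9 at 48 h, and it averaged 129 CPM ± 54.6, 186 CPM ± 57.9 and 184 CPM ± 57.5 in APC-deleted cells (SD, n = 3). The share of counted reads in no annotated gene was 5.56% ± 0.489, 6.21% ± 0.540 and 6.59% ± 0.376 in APC-intact cells and 4.81% ± 0.153, 5.43% ± 0.141 and 5.67% ± 0.423 in APC-deleted cells. For Malat1, the APC-intact libraries at 48 h lay above all untreated ones, and the other treated groups overlapped them. The share in no annotated gene was above the untreated range in all treated groups except APC-intact at 24 h, which overlapped. The part of these measures in the mitochondrial values was not tested.

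Nuclear genes whose products transcribe, process and stabilise mitochondrial RNA were read from a list of 41 symbols, 32 of which are in the files and were tested. In APC-intact cells at 24 h, 0 of 32 were called by edgeR, against 5.64% of all tested genes, and 2 by DESeq2. At an unadjusted edgeR p under 0.05 there were 5, against 2917 of the 15006 tested genes. In APC-deleted cells, edgeR called 0 of 32 at 24 h and 0 at 48 h, against 5.85% and 11% of all tested genes. DESeq2 called 1 and 2. At an unadjusted edgeR p under 0.05 there were 5 each time, against 2962 and 3909 of the 15006 tested genes. In all 3 of these comparisons, 5 of 32 is no larger a share than among all tested genes. After 48 h, in APC-intact cells, 3 rose and 0 fell, against 3.81% and 7.54% of all tested genes, so that the called share was near that of all genes. They were Trmt10c, a subunit of the enzyme that cuts tRNAs at their 5′ end, by 0.26 ± 0.0562 (edgeR adjusted p = 0.00499), Lrpprc, which stabilises mitochondrial mRNAs, by 0.23 ± 0.0555 (edgeR adjusted p = 0.0118), and Fastkd2, an RNA-binding protein of the mitochondrion, by 0.21 ± 0.0608 (edgeR adjusted p = 0.0342). The list's median log2 fold change there was -0.01. For 48 h against 24 h in APC-deleted cells and the difference of the 48 h responses, both tools called 0 of 32. Of all tested genes, edgeR called 0.52% and 0.0267%. At an unadjusted edgeR p under 0.05 there were 2 and 0, against 1353 and 1051 of the 15006 tested genes.

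Between the lines, untreated APC-deleted cells had 2 of the 32 higher and 6 lower than APC-intact cells, against 13.4% and 13.8% of all tested genes. At 48 h, 3 were higher and 9 lower, against 17.8% and 16.8%. Both counts are near the shares called among all genes (27.3% and 34.7% in either direction) and are no result about the list. Hsd17b10, another subunit of the enzyme that cuts tRNAs at their 5′ end, was higher by 0.75 ± 0.0507 untreated and by 0.75 ± 0.0507 at 48 h (edgeR adjusted p = 5.94e-10 and 6.05e-10). Its means were 110.1 CPM in untreated APC-intact and 185 CPM in untreated APC-deleted cells. Mtpap, which adds poly(A) tails to mitochondrial mRNAs, was lower by a log2 fold change of -0.26 ± 0.0698 untreated and -0.45 ± 0.0701 at 48 h (edgeR adjusted p = 0.00807 and 4.86e-05). Also lower were Tfb1m, an rRNA methyltransferase, untreated (-0.30 ± 0.0964, edgeR adjusted p = 0.0252), and Fastkd5, an RNA-processing factor, and Tfam, which packages mitochondrial DNA and starts its transcription, at 48 h (-0.50 ± 0.113 and -0.28 ± 0.0633, edgeR adjusted p = 0.00189 and 0.00151). Fastkd1, of the same family, was higher untreated (0.23 ± 0.0784, edgeR adjusted p = 0.0383). The list's median log2 fold change was -0.04 untreated and -0.05 at 48 h.

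Of 8 nuclear regulators of mitochondrial biogenesis, 1 was higher and 1 lower in APC-deleted than in APC-intact cells, both untreated and at 48 h, no larger a share than the 27.3% and 34.7% of all tested genes. Ppargc1b, a coactivator of nuclear genes for mitochondrial proteins, was higher by 0.28 ± 0.100 untreated and 0.50 ± 0.100 at 48 h (edgeR adjusted p = 0.0463 and 0.000582). Its relative Ppargc1a was called lower (edgeR adjusted p = 0.000187 and 0.000166) at very low levels, with 50 counts in the 3 untreated APC-intact and 1 count in the 3 untreated APC-deleted libraries, and 87 and 6 counts at 48 h. With treatment, 0 of the 8 were called by edgeR or DESeq2 in either line at 24 h or 48 h. Of all tested genes, edgeR called 5.64% to 11.3%. At an unadjusted edgeR p under 0.05 there was 1 at 24 h in each line and 0 at 48 h. Of the 15006 tested genes, 2917 (APC-intact) and 2962 (APC-deleted) passed this at 24 h, and 4133 and 3909 at 48 h.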

How the data were processed

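RNA from 18 libraries of MC38 cells was sequenced, and the authors deposited 1 table per library with a read count and an RPKM value per gene. Reads were handled with STAR and HTSeq on build mm10, per the submitters' processing notes, with versions and settings not given in the sources used here. The deposited counts were used as whole numbers, and the RPKM values that the authors deposited were not used. Entries that name no gene, 22.9% to 25.5% of all counted reads, entered neither library sizes nor tests. Counts were scaled by TMM and tested with edgeR 4.0.16 (quasi-likelihood, all 6 groups in 1 fit, R 4.3.3), with p-values adjusted by Benjamini-Hochberg over 15006 genes and a threshold of 0.05, and the code was tested on simulated data. DESeq2 1.42.0 was an alternative, and its shares over all tested genes are not given here. The others were another size factor, no filter, thinned counts, library sizes without mitochondrial genes, fitting the compared groups alone, a replicate block and leaving out libraries. Wilson intervals and floors cover counting error only, while intervals of ratios come from edgeR and include the spread between replicates. All members are named, with values in every library for the mRNAs, the rRNAs and the 3 tRNAs with most counts; from the 2 lists of nuclear genes, up to 4 called genes per comparison with the largest change are named. Members and lists were chosen with earlier results of these data known. Shared sequence was searched in GENCODE M21 transcripts with runs of 50, 75 and 100 bases, since the read length is not given in the sources used here.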

Additional observations from a re-analysis of the deposited data

How the results depend on the processing

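The falls of mt-Tn and mt-Tc with doxycycline in both lines, and their lower level in APC-deleted cells at 48 h, stayed past the threshold in all 14 alternatives, as did mt-Cytb in APC-deleted cells at 24 h and 48 h and mt-Nd3, mt-Nd4 and mt-Nd5 there at 48 h. No direction reversed for a called gene. Of the 30 called genes, counted once per comparison, 9 lost the call with no filter on low counts, 10 when only the groups compared were fitted, 2 when counts were thinned to the shallowest library, and 0 with DESeq2, with its size factors or with library sizes without mitochondrial genes. Over all cases of leaving out 1 library, 57 calls were lost and 123 kept. The cause was not tested. For APC-deleted against APC-intact untreated cells, where 2 members were called, 0 were called with no filter, 0 when only those groups were fitted, and 0 without the 2 libraries that stand apart, an alternative chosen after seeing the data; leaving out 1 library in turn gave 0 to 3. At 48 h, where 4 were called, 2 were called with no filter and 2 without the libraries that stand apart, and leaving out 1 library gave 2 to 5. For 48 h against 0 h in APC-intact cells, 7 were called when only those groups were fitted, in place of 4, and leaving out 1 library gave 2 to 3. For 24 h against 0 h in APC-deleted cells, 5 were called in place of 9 when only those groups were fitted, and leaving out 1 library gave 3 to 12. Replicate numbers did not pair the libraries: correlations of same-numbered deviations were -0.088 to 0.116, and a library correlated best with its own number in 1 or 2 of 3 cases in each comparison. With a replicate block, 1 member in place of 2 was called between the untreated lines, and 5 of the 30 calls were lost. Few counts limit what can be read from the 6 low mRNAs, at 1 to 133 counts per library, and from the 19 tRNAs under 20 counts. Why they had few counts was not tested.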
